A study of Mus musculus with 8 samples.

Results

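The 10 genes described here are the CXC chemokines and CXC chemokine receptors that steer lymphocytes: the ligands Cxcl9, Cxcl10, Cxcl12, Cxcl13, Cxcl14 and Cxcl16 and the receptors Cxcr3, Cxcr4, Cxcr5 and Cxcr6. They were taken by symbol from the 27923 genes listed in the tables of unique molecular identifiers (UMIs, tags that count captured RNA molecules), and all 10 were measured. The cells came from lung tumors of the KP mouse model, in which Cre recombinase deletes p53 (p53 fl/fl, chimeric mice made from embryonic stem cells of the KP genotype). In every group Cre was delivered by an adenovirus under the surfactant protein C promoter, which drives expression in alveolar type II cells, to mice aged 12 weeks, and tumors were taken 16 weeks later. Tumor 1 and Tumor 2 each gave 1 Healthy/Tumor Border library, of cells tagged by photoactivating a caged calcein dye at the tumor edge of a live section and then sorted, and 3 Whole Tumor libraries of cells that were not photoactivated. The Whole Tumor libraries are technical Seq-Well arrays of 1 tumor each, so p-values measure the spread between arrays, except in the single fit of both tumors. Each tumor is 1 mouse, so tumor and animal cannot be told apart. The study used 1 male and 1 female mouse, so sex cannot be told apart from tumor either. The border samples have 1 library each.

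CXC chemokines are small secreted proteins that draw cells bearing the matching G protein-coupled receptor. Cxcl9 and Cxcl10 are induced by interferon and bind Cxcr3, known from activated T and NK cells. Cxcl12, made by stromal cells, binds Cxcr4, which is also known for holding neutrophils in the bone marrow. Cxcl13 draws B cells through Cxcr5 into lymphoid follicles. Cxcl16 exists as a membrane-anchored form, which can hold cells, and as a shed form, and it binds Cxcr6, found on tissue-dwelling T cells and innate lymphoid cells. Cxcl14 is made by epithelial and stromal cells.

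Each of 3894 barcodes with at least 200 genes was put in the class with the largest share of its marker genes detected, at least 2 of them; 3050 barcodes (78.3%) entered 1 of the classes and 844 stayed ungated, with a median of only 424.5 UMIs. None of the 10 genes was a marker, but Cxcr6 was among the 10 genes that led the group 2 innate lymphoid-like class. The libraries held 374369 to 2019162 UMIs after this filter. The second Whole Tumor array of Tumor 2 was the shallowest, with a median of 675.5 UMIs per barcode. The cell names inside all 8 tables carry the other tumor's number. GEO's labels were followed: by these the border tables held 686 barcodes for Tumor 1 and 534 for Tumor 2 as deposited. The study's text assigns its border cell numbers to the tumors as the labels do. Across libraries, 10 barcode sequences were shared by 56 barcodes, all of them resembling a primer or a run of 1 base. Levels are given as CPM, a gene's UMIs scaled to a fixed total of UMIs of the class or library, with exact Poisson 95% intervals that cover counting error only. Differences were tested on summed UMIs with edgeR, after TMM scaling, which sets libraries to a common level through genes that differ little, and are given as log2 changes ± SE. A gene was called when its p, adjusted over all genes tested by the Benjamini-Hochberg method, was under 0.05.

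Cxcl16, the ligand of Cxcr6, was the most abundant of the 10 by UMIs, with 1867 in 540 barcodes. C1q macrophage-like cells, named for complement genes C1qa, C1qb and C1qc, held 65.6% of them in 10.1% of the barcodes. Their level was 708 CPM (669 to 749), and 63.2% of the 394 barcodes had a UMI. Mature dendritic-like cells, marked by Fscn1 and Il12b, stood beside them at 892 CPM (728 to 1081) over 29 barcodes, and these intervals overlapped. In arrays with at least 5 of its barcodes that class had 372 and 253 CPM in Tumor 1 and 1573 in the third array of Tumor 2. Without that Tumor 2 array it fell to 572 CPM, and C1q macrophage-like cells were highest at 674. A lower tier held conventional dendritic-like cells at 259 CPM, Krt+ tumor-like cells at 177, fibroblast-like cells at 145 and Sftp+ tumor-like cells at 138, and all neighbours within it overlapped. Neutrophil-like cells lay at 36.1 CPM over 1695 barcodes. T-like and group 2 innate lymphoid-like cells had 0 UMIs, in 62 and 55 barcodes at median depths of 2086 and 2522 UMIs, against 3482 in the C1q class. Against a floor of 3 UMIs over the class, C1q macrophage-like cells were at least 35.3-fold higher than T-like cells. Mature dendritic-like cells were at least 44.4-fold higher than T-like cells.

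Cxcr6 (chr9:123806477-123811754, GRCm38.p6), its receptor, was highest in the classes with 0 Cxcl16 UMIs, as the plot of both genes by class shows. Some classes, such as B-like cells, were low in both genes. Group 2 innate lymphoid-like cells, named for tissue lymphocytes without antigen receptors and marked by Il1rl1, Gata3 and Il5, held 138 of the 266 UMIs in 1.41% of the barcodes. Their level was 928 CPM (779 to 1096), and 56.4% of the barcodes had a UMI. T-like cells followed at 415 CPM (318 to 532), with a UMI in 29.0% of barcodes, and NK-like cells at 72.0 CPM, where all 4 UMIs lay in 1 barcode. Without the third Tumor 2 array the T-like level was 246 CPM. In neutrophil-like cells, taken as background for this receptor, 0.118% of barcodes had a UMI at a median depth of 2047. With every barcode thinned to 1000 UMIs, the shares were 41.7% of 48 group 2 innate lymphoid-like and 24.5% of 53 T-like barcodes. B-like cells had 0 UMIs in 128 barcodes. The gate of the group 2 innate lymphoid-like class did not ask for the absence of T cell markers. Of its 55 barcodes, 13 carried at least 2 markers of another class. The study named Th2 T cells among its cell types, and whether this class holds some of them was not tested.

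**Figure D1:**
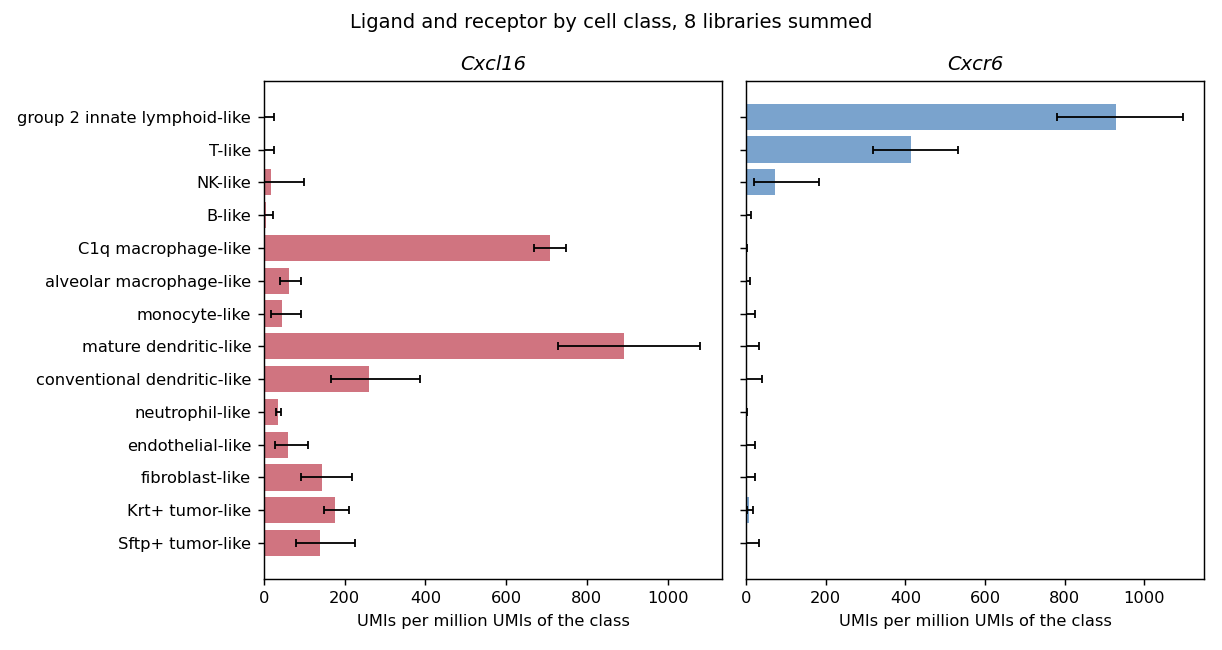
Levels of Cxcl16 (left) and Cxcr6 (right) by cell class, in CPM of the class with the 8 libraries summed; bars show the level and lines the exact Poisson 95% interval. Cxcl16 is highest in mature dendritic-like and C1q macrophage-like cells, at 892 and 708, while Cxcr6 is highest in group 2 innate lymphoid-like and T-like cells, at 928 and 415.

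T-like cells were at least 42.7-fold above B-like cells in Cxcr6, on the 3-UMI floor. The test within libraries gave an adjusted p of 1.40e-09 (edgeR quasi-likelihood, 4 libraries). As B-like cells had 0 UMIs, Cxcr6 passed the filter on low counts through T-like cells alone, so the test adds nothing to this bound. Cxcr6 was the only member tested there, where 24.4% of 943 genes passed. DESeq2 gave an adjusted p of 0.0519 for it, no member was called with at least 3 markers per class or with no library block, and without the third Whole Tumor array of Tumor 2 it fell below the filter on low counts. Between group 2 innate lymphoid-like and T-like cells the difference was 1.25 on the log2 scale (95% interval 0.10 to 2.40, adjusted p = 0.233, 2 libraries, edgeR), where 5.17% of 619 genes passed. Of the 76 barcodes with a Cxcr6 UMI, 3 also had a Cxcl16 UMI.

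By library, the innate lymphoid-like class ran from 408 to 1442 CPM of Cxcr6 in the 5 libraries with at least 5 of its barcodes. In Tumor 1 its levels were 926, 869 and 408 CPM in the 3 Whole Tumor arrays, with 17, 49 and 9 UMIs. The T-like class had 110 CPM at the Tumor 2 border against 364, 253 and 823 CPM in the Tumor 2 arrays. The border value lay below all 3 arrays, on 6 UMIs in 23 barcodes. The Tumor 1 border held only 2 barcodes of either class and no Cxcr6 UMI at all.

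Over all cells, Cxcr6 was lower at both borders than in any array of the same tumor. In such sums, fewer cells of a type and less RNA per cell cannot be told apart. The Tumor 1 arrays gave 34.8, 31.7 and 9.55 CPM and the border 0 UMIs of 1230033, so the arrays together were at least 11.0-fold higher than the 3-UMI floor of the border library. The Tumor 2 arrays gave 55.9, 40.1 and 48.5 CPM against 9.58 at the border. Both differences passed (adjusted p = 0.00209 and 0.0177, edgeR). With 0 UMIs at the Tumor 1 border, the call there adds nothing to the bound of 11.0-fold. The change in Tumor 2 was -2.51 ± 0.56 (SE) on the log2 scale, and with at least 500 genes per barcode it was -2.44 (adjusted p = 0.110). Group 2 innate lymphoid-like cells made up 0.323% of barcodes at the Tumor 1 border against 2.20% in its arrays, and 0.988% against 1.22% in Tumor 2. T-like cells made up 0.323% against 0.343% in Tumor 1 and 4.55% against 2.44% in Tumor 2. The part of cell numbers in the lower Cxcr6 was not tested.

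With both tumors in a single fit, Cxcr6 was the only member called between Border and Whole (adjusted p = 0.00204, edgeR, lower at both borders), where 0.354% of 11021 genes were called, all lower. That call was lost with DESeq2, with library totals in place of TMM scaling and without the second Tumor 1 array (adjusted p = 1.0, 0.405 and 0.0666). The genes whose class pattern was most like that of Cxcr6 were Icos (Pearson r = 0.98), a T cell costimulatory receptor, and Ctla4 (r = 0.96), an inhibitory one. These values are descriptions over 15 classes that share libraries and depth.

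Cxcl10, the interferon-induced Cxcr3 ligand, had 557 UMIs in 149 barcodes, 62.7% of them in C1q macrophage-like cells at 202 CPM (181 to 224) over all libraries. Endothelial-like cells followed at 82.4 CPM (45.1 to 138), below that interval, and every later neighbour in the order overlapped the next. This order rests on Tumor 2 and its border. Without the Border libraries the levels of these classes were 105 and 86.0 CPM, and in the Tumor 2 arrays their means were close, at 137 ± 79.4 for C1q macrophage-like and 137 ± 132 CPM for endothelial-like cells (SD, n = 3 arrays). In the Tumor 1 arrays C1q macrophage-like cells, at 5.51 ± 5.92 CPM, had a lower mean than neutrophil-like and Krt+ tumor-like cells, at 13.3 ± 7.37 and 20.9 ± 24.1, and the arrays of these classes overlapped. The endothelial-like level was 16.1 CPM without the third Tumor 2 array, where monocyte-like cells were second at 86.9. B-like cells, taken as background, had 9.71 CPM and a UMI in 1.56% of barcodes at a median depth of 2079.5. A few cells carried much of the RNA: the highest barcode, a C1q macrophage-like cell of the Tumor 2 border, held 79 UMIs, and the 5 highest held 39.1%. Of the 54 C1q macrophage-like barcodes with Cxcl10, 79.6% also had Cxcl16, against 63.2% of the class as a whole; the depth of the barcodes was not matched. The closest class patterns were those of Arrdc2 and Socs3, an inhibitor of cytokine signalling (r = 0.77 and 0.76).

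Cxcl9, the second interferon-induced ligand, had only 27 UMIs in 25 barcodes and no class above 21.6 CPM, where 2 UMIs stood for conventional dendritic-like cells, whose level ran from 11.0 to 40.0 CPM without each array in turn. All neighbours in its order overlapped. Cxcr3 itself (chrX:101731535-101734147) had 17 UMIs in 13 barcodes. T-like cells were highest at 33.4 CPM (10.9 to 78.1), with 5 UMIs in 3 of 62 barcodes (4.84%), against 0.118% of neutrophil-like barcodes as background. The interval of T-like cells overlapped that of B-like cells at 9.71 CPM, which was 3.49 without the third Tumor 1 array. Without the Border libraries B-like cells were the higher class, at 14.1 against 11.0 CPM. Neither Cxcl9 nor Cxcr3 passed the filter on low counts. With no filter, 0 of 23 tests of these genes by edgeR were called and 0 had an unadjusted p under 0.05, and DESeq2 gave the same counts but an adjusted p for only 3 of its 23.

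The promoters of these ligands are shown because Cxcl10 was higher at both borders (below). RefSeq (GRCm38.p6) promoter windows, from 250 bases before to 50 after the start site, were held for 8 of the 10 genes, without Cxcl16 and Cxcr5. They were searched on both strands for the interferon-stimulated response element (GAAA and GAAA with any 2 bases between), the gamma-activated site (TTC and GAA with any 3 bases between) and the kappaB motif (GGGAA and TTCC with any 1 base between), which are present in 3.43%, 8.29% and 0.341% of all 32817 windows. The stretches with a match are written 5′ to 3′ on the gene's strand, with matches in capitals. For Cxcl10 the capitals mark a response element at -213 to -204 and a kappaB motif at -159 to -150. For Cxcl14 they mark a gamma-activated site at -191 to -183 and a response element at -172 to -163. The start site that this window uses lies inside the full extent of Cxcl14 (given with its levels), so the Cxcl14 stretch is within the annotated gene.
Cxcl10, chr5:92349027-92349114, minus strand: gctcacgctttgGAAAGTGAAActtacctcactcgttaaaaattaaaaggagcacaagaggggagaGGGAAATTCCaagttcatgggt
Cxcl14, chr13:56296702-56296754, minus strand: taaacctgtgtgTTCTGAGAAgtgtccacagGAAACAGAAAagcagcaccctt
The window of Cxcl9 held none of these motifs, which says nothing of sites outside it. Cxcl9 and Cxcl10 are neighbours on chromosome 5 (chr5:92321331-92328079 and chr5:92346638-92348889).

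Cxcl10 was higher at the border of both tumors over all cells. The Tumor 1 arrays gave 17.9, 14.9 and 5.73 CPM and the border 38.2 CPM. The Tumor 2 arrays gave 40.9, 53.4 and 71.9 CPM and the border 189 CPM. Each border library lay above all arrays of its tumor. Few barcodes carried these levels. At the Tumor 2 border, single C1q macrophage-like barcodes held 79, 42, 29 and 18 of the 277 UMIs. The share of barcodes with a UMI was 2.26% at the Tumor 1 border, within the 1.39% to 2.79% of its arrays. In Tumor 2 it was 9.29% at the border against 4.57%, 2.45% and 5.52%. The log2 changes were 2.06 ± 0.43 in Tumor 1 (adjusted p = 0.00224) and 1.54 ± 0.32 in Tumor 2 (adjusted p = 0.0109; edgeR, SE), and their difference was -0.53 ± 0.54 (adjusted p = 0.584), or 0.17 with library totals in place of TMM scaling. With at least 500 genes per barcode the Tumor 2 change was 1.49 (adjusted p = 0.0634). Across both tumors in a single fit it did not pass (adjusted p = 0.331).

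The class that held most Cxcl10 UMIs at the border differed between the tumors. At the Tumor 1 border 97.9% of them lay in neutrophil-like cells, which were 70.3% of its barcodes. At the Tumor 2 border 91.0% lay in C1q macrophage-like cells, which were 33.8%. Neutrophil-like cells were 43.5% of barcodes in the Tumor 1 arrays, and C1q macrophage-like cells 11.0% in those of Tumor 2. The part of cell numbers in the higher Cxcl10 was not tested. Within neutrophil-like cells the Tumor 1 border had 43.3 CPM against 17.5, 17.7 and 4.79 CPM in the arrays, a log2 change of 2.14 ± 0.57 (adjusted p = 0.0186, edgeR). Without the third Tumor 1 array it was 1.81 (adjusted p = 0.0778), and with library totals 1.59 (adjusted p = 0.0677), while DESeq2 gave no adjusted p for it. The Tumor 2 border had 59.7 CPM in this class against 0, 9.42 and 13.8. That change of 2.18 ± 0.80 did not pass (adjusted p = 0.109, edgeR). It ran from 1.70 without the first Tumor 2 array to 3.87 without the third (adjusted p = 0.169 and 0.0954), and it passed with classes from clusters and with library totals (adjusted p = 0.0384 and 0.0399). Within C1q macrophage-like cells of Tumor 2, the border had 316 CPM against 73.2, 112 and 226, above every array, at 0.99 ± 0.47 on the log2 scale (adjusted p = 0.768, edgeR), or 1.75 without the third Tumor 2 array (adjusted p = 0.534). Of the 394 barcodes of the class, 201 carried at least 2 markers of another class, and without such barcodes the change was -0.22. No member was called in that class between Border and Whole, of 5 tested (1 at an unadjusted p under 0.05 by edgeR, and 0 called by DESeq2), where 0.121% of 4143 genes were called.

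**Figure D2:**
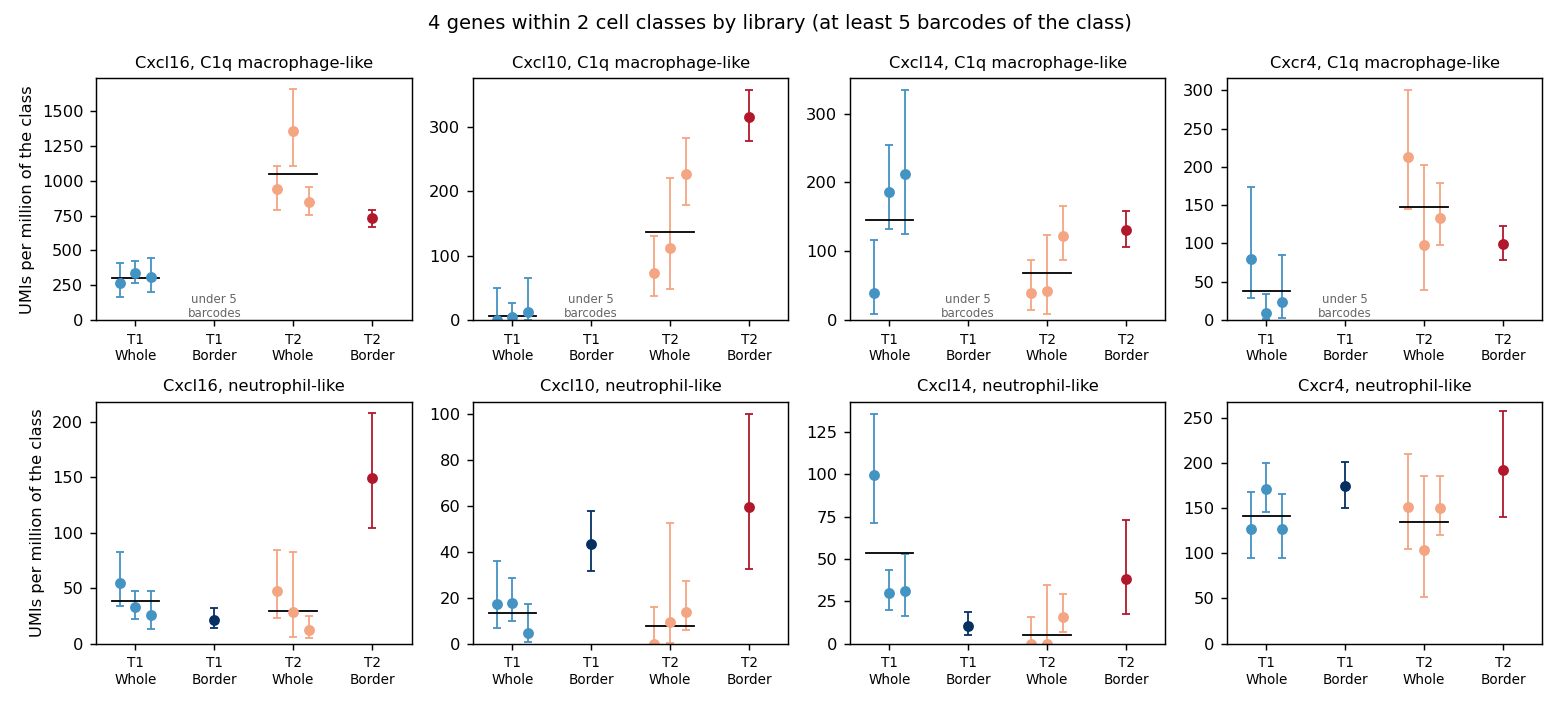
Levels of Cxcl16, Cxcl10, Cxcl14 and Cxcr4 within C1q macrophage-like (top) and neutrophil-like cells (bottom), in CPM of the class; points are libraries with exact Poisson 95% intervals and black lines the mean of 3 arrays. In C1q macrophage-like cells the Tumor 2 arrays lie above those of Tumor 1 for Cxcl16, at 847 to 1360 against 266 to 339, and for Cxcl10, at 73.2 to 226 against 0 to 11.8.

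Cxcl16 differed between the tumors over all cells. The Tumor 1 arrays gave 95.4, 102 and 78.3 CPM over all cells and the Tumor 2 arrays 267, 358 and 234 CPM, without overlap. Whole Tumor 2 was higher by 1.91 ± 0.20 on the log2 scale (adjusted p = 1.42e-06, edgeR). Within neutrophil-like cells the same difference was 0.20 ± 0.46 (adjusted p = 0.751, edgeR). C1q macrophage-like cells were 5.36% of barcodes in the Tumor 1 arrays and 11.0% in those of Tumor 2. Inside that class the mean level of the arrays was 304 ± 36.3 CPM in Tumor 1 and higher, at 1048 ± 273 CPM, in Tumor 2 (SD, n = 3 arrays). The 3 values of each tumor did not overlap (exact permutation test, two-sided p = 0.1, the smallest that 3 against 3 can give). Cxcl10 in the same class was 5.51 ± 5.92 and 137 ± 79.4 CPM (SD, n = 3 arrays; exact permutation p = 0.1), and Cxcr4 was 37.6 ± 37.2 and 148 ± 58.8 CPM (exact permutation p = 0.1). Cxcl14 went the other way and overlapped, at 146 ± 92.7 and 68.0 ± 46.7 CPM (exact permutation p = 0.4). These 4 comparisons within the class were added after the values were seen. An exact permutation p of 0.1 here only restates that the arrays did not overlap. As no smaller p was possible, the test cannot decide whether the levels differed.

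At the border Cxcl16 went in different directions. Tumor 1 had 32.5 CPM at the border, below all 3 arrays, a log2 change of -0.97 ± 0.34 (adjusted p = 0.0535). Tumor 2 had 475 CPM, above all 3, a change of 0.59 ± 0.25 (adjusted p = 0.261). Neither passed alone, but the difference between the tumors did, at 1.56 ± 0.42 (adjusted p = 0.0170; edgeR). With at least 500 genes per barcode that difference was 1.39 (adjusted p = 0.0832). The Tumor 1 change was called by DESeq2 (adjusted p = 0.0324), with no filter on low counts (0.0172), with all deposited barcodes (0.0479), with library totals (0.00226) and in the fits without the third Tumor 1 array, the first Tumor 2 array and the second Tumor 2 array (0.0439, 0.0450 and 0.0336). C1q macrophage-like cells were 0.161% of barcodes at the Tumor 1 border and 33.8% at that of Tumor 2.

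Within C1q macrophage-like cells of Tumor 2, the border had 729 CPM of Cxcl16 against 938, 1360 and 847 in the arrays. It lay below every array, at -0.61 ± 0.39 on the log2 scale (adjusted p = 0.916, edgeR). Within neutrophil-like cells the Tumor 2 border had 149 CPM against 47.3, 28.3 and 12.1, a change of 2.16 ± 0.53 (adjusted p = 0.0131, edgeR). The change was 2.82 without the first Tumor 2 array. Beside the higher Cxcl16 and Cxcl10 of this class there, the neutrophil receptor Cxcr2 was lower, at a log2 change of -1.88. Ccr7 had 290 CPM in the class at the Tumor 2 border against 64.3 in the arrays summed. Whether the make-up of the class differed was not tested. The call was lost without the third Tumor 2 array (1.50, adjusted p = 0.145), with classes taken from clusters (adjusted p = 0.364) and without barcodes that carried at least 2 markers of another class (adjusted p = 0.447).

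Cxcl16 also differed between myeloid classes within libraries. Its level in C1q macrophage-like cells exceeded that of neutrophil-like cells by 3.64 ± 0.39 on the log2 scale (adjusted p = 4.17e-06, 7 libraries, edgeR). Krt+ and Sftp+ tumor-like cells differed in Cxcl16 by -0.15 ± 1.12 (adjusted p = 0.965, 2 libraries, edgeR), where 4.85% of 1795 genes were called. In Krt+ tumor-like cells, 4 libraries with at least 5 barcodes gave 117 to 224 CPM. The gene lies at chr11:70454389-70459984 (GRCm38.p6), where RefSeq places it across the start of Zmynd15, a marker of the mature dendritic class, and whether reads were counted by strand is not given in the sources used here. The closest class patterns were those of Flrt3 and Specc1 (r = 0.83 for each).

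Against neutrophil-like cells, all 5 members tested in C1q macrophage-like cells were called, where 42.1% of 5354 genes were called. Of these members, Cxcl13 had almost no neutrophil-like UMIs, as given below. Cxcl10 was higher by 2.03 ± 0.58 and Cxcl14 by 2.06 ± 0.46, while Cxcr4 was lower by a change of -1.04 ± 0.37 (adjusted p = 0.0108, 0.00211 and 0.0313; edgeR). By CPM, the class means did not run the same way in both tumors for Cxcl10 and Cxcr4. Cxcl10 had 137 CPM in C1q macrophage-like and 7.74 ± 7.06 in neutrophil-like cells of the Tumor 2 arrays, but 5.51 and 13.3 in those of Tumor 1. Cxcr4 had 37.6 and 142 ± 25.4 CPM in the Tumor 1 arrays, without overlap, but 148 and 135 ± 27.0 in those of Tumor 2, which overlapped (SD, n = 3 arrays). Whether the class difference itself differed between the tumors was not tested. Cxcl14 had a higher mean in C1q macrophage-like cells in both, at 146 against 53.6 CPM in Tumor 1 and 68.0 against 5.18 in Tumor 2. For Cxcl13, 86 UMIs, all of Tumor 2, stood against 1 from a Tumor 1 array, a pooled ratio of 196 with a counting interval of 34.2 to 7826. The change fitted within libraries was 4.41 ± 1.06 (adjusted p = 0.00482, edgeR), and DESeq2 did not call it (adjusted p = 0.540). Without the third Tumor 1 array, which held the 1 UMI, it was 5.66. Cxcl13 passed the filter on low counts through C1q macrophage-like cells alone, so its call adds nothing to these UMI counts. Without the third Tumor 2 array, Cxcl10 had an adjusted p of 0.0681, and without the Border libraries 0.0576. For Cxcr4 the adjusted p was 0.0725 without the second Tumor 1 array and 0.0728 without the third Tumor 1 array, 0.269 without barcodes of mixed markers, 0.116 with library totals, 0.249 with no library block and 0.0737 without the Border libraries. Of the 28 other chemokines and chemokine partners listed, 15 were tested, 6 rose and 5 fell. Platelet factor 4 (Pf4), the fractalkine receptor Cx3cr1 (4.01), the Cxcl12 scavenger Ackr3 (3.57) and Adam10 (2.32), a protease that sheds Cxcl16, were higher. UMIs follow for the Tumor 1 arrays, the Tumor 2 arrays and the Tumor 2 border, in that order. Pf4 had 84, 230 and 120 in C1q macrophage-like and 10, 0 and 1 in neutrophil-like cells. Ackr3 had 31, 2 and 3 in C1q macrophage-like cells, at 83.8, 3.58 and 3.76 CPM. The neutrophil receptor Cxcr2 was lower, with 1, 1 and 3 against 710, 515 and 49 in neutrophil-like cells. The calls of Pf4 and Cxcr2 add little to these counts. The Cxcr2 ligands Cxcl2 (-2.46) and Cxcl3 (-1.34) were lower, while Cxcl1 (2.14), another of its ligands, was higher. The receptor kinase Grk6 (-1.47) was lower. The list's median was -0.10 against 0.03 for all genes.

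Cxcl12 (chr6:117168535-117181368), the stromal ligand of Cxcr4, was highest in stromal classes. Fibroblast-like cells had 398 CPM (306 to 509), with 63 of the 112 UMIs, and endothelial-like cells 147 CPM (95.3 to 217) with 25, summed over both tumors; these intervals did not overlap each other or those of later classes. Krt+ tumor-like and B-like cells had 0 UMIs, and fibroblast-like cells were at least 94.9-fold above the first of these on the 3-UMI floor. All endothelial-like UMIs came from Tumor 2, where the arrays had 483, 442 and 197 CPM, while the 14 endothelial-like barcodes of the Tumor 1 arrays had 0. Fibroblast-like cells had 0, 488 and 598 CPM in the Tumor 2 arrays and 192 and 1139 in the second and the third array of Tumor 1. Among the Tumor 2 arrays the classes overlapped, with means of 374 ± 155 for endothelial-like and 362 ± 318 CPM for fibroblast-like cells (SD, n = 3 arrays). Within libraries, endothelial-like against fibroblast-like cells differed by -1.29 ± 0.87 on the log2 scale (adjusted p = 0.264, 4 libraries, edgeR), where 33.3% of 369 genes were called. Without the first Tumor 2 array the change was -2.66 (adjusted p = 0.0499), and without barcodes of mixed markers endothelial-like cells were the higher class, at 364 against 180 CPM. The closest patterns were those of Col5a2, a fibrillar collagen, and Nr2f2, a nuclear receptor (r = 0.98 for each).

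**Figure D3:**
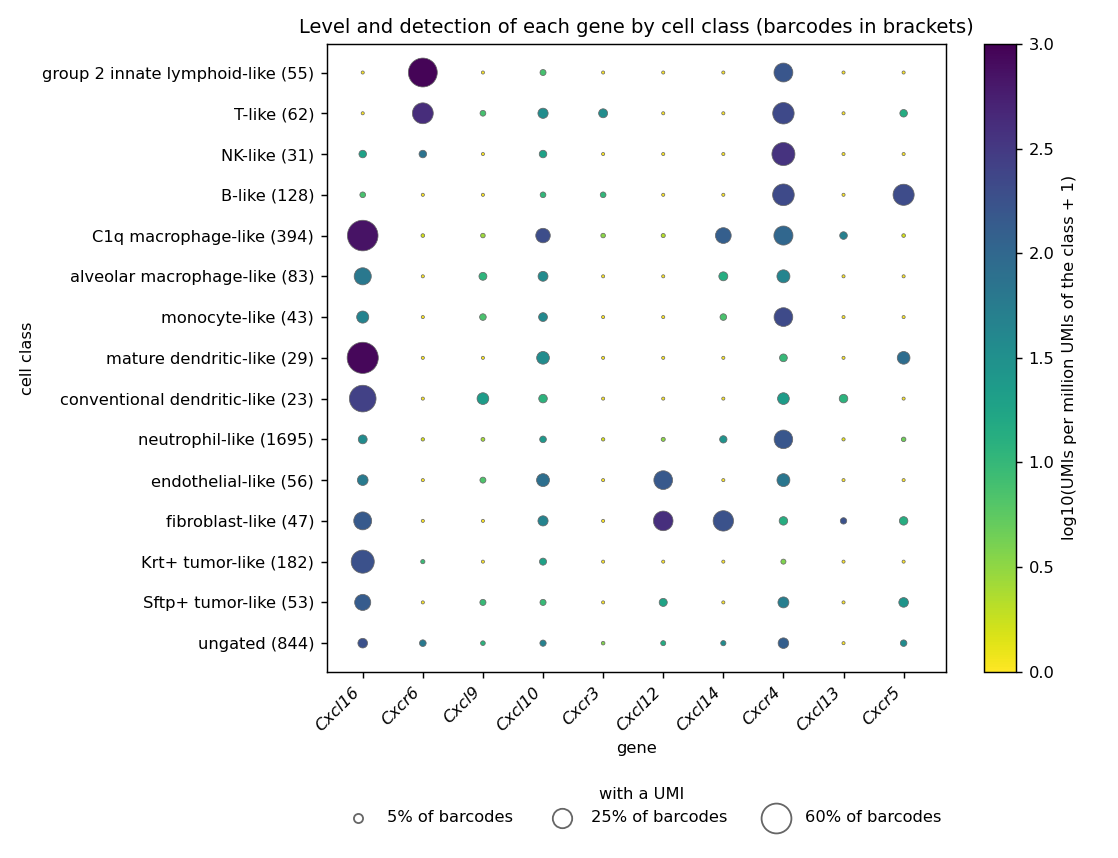
Levels of the 10 genes in 14 cell classes and the ungated barcodes; colour gives log10 of CPM of the class plus 1, and circle area grows with the share of barcodes with a UMI. Cxcr4 is spread over most immune classes, with a UMI in 22.9% of 1695 neutrophil-like barcodes, while Cxcl12 is highest in fibroblast-like and endothelial-like cells at 398 and 147.

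Cxcr4 (chr1:128588199-128592299) was the most widely held receptor, with 1152 UMIs in 17.6% of barcodes. Levels were highest in NK-like cells at 360 CPM (220 to 556), then T-like at 214, B-like at 210, monocyte-like at 208, neutrophil-like at 158 (146 to 171) and group 2 innate lymphoid-like cells at 155. All neighbours in this order overlapped. The NK-like level was 235 CPM without the first Tumor 2 array. By number, neutrophil-like cells held 54.0% of the UMIs. Krt+ tumor-like cells, taken as background, had 2 UMIs in 182 barcodes (1.10%) at a median depth of 2888, whereas 31.3% of B-like and 30.6% of T-like barcodes had a UMI. After thinning to 1000 UMIs the shares were 19.3% in B-like, 18.9% in T-like and 15.0% in neutrophil-like barcodes, and 0 in Krt+ tumor-like ones. The closest patterns were those of Arhgap4 and Wapal (r = 0.93 and 0.90).

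At the Tumor 1 border Cxcr4 rose by 1.30 ± 0.23 on the log2 scale (adjusted p = 5.58e-04, edgeR). The arrays gave 89.5, 98.1 and 86.0 CPM and the border 156 CPM, above all of them. The share of barcodes with a Cxcr4 UMI was 19.4% at this border, within the 11.8% to 20.6% of the arrays. In Tumor 2 the border value of 134 CPM fell within the array range of 104 to 159, and the difference between the tumors passed at -1.45 ± 0.34 (adjusted p = 0.00683, edgeR). With library totals the latter was -0.75 (adjusted p = 0.101), and with no filter on low counts -1.11 (adjusted p = 0.109). Neutrophil-like cells were 70.3% of barcodes at the Tumor 1 border and 43.5% in its arrays. Within that class the border had 174 CPM against 127, 171 and 127, a change of 0.82 ± 0.30 that did not pass (adjusted p = 0.112, edgeR).

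Cxcl14 (chr13:56288643-56296811) had 450 UMIs in 171 barcodes. Among the classes given here its highest levels were in fibroblast-like cells at 177 CPM (117 to 255) and C1q macrophage-like cells at 124 (108 to 142), which overlapped. Neutrophil-like cells had 27.7 CPM, and B-like and Krt+ tumor-like cells 0 UMIs. C1q macrophage-like cells were at least 29.7-fold above Krt+ tumor-like cells on the 3-UMI floor. By number, 47.8% of UMIs lay in C1q macrophage-like and 24.2% in neutrophil-like cells. The nearest class patterns were C4b, a complement component, and Peli2 (r = 0.92 for each).

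Cxcl14 had the largest difference between tumors in its border change among the 8 members tested that passed there. The Tumor 1 arrays gave 65.6, 54.0 and 65.9 CPM against 10.6 at the border, a change of -1.99 ± 0.49 (adjusted p = 0.00765). The Tumor 2 arrays gave 15.0, 10.7 and 34.6 CPM against 79.3, a change of 1.54 ± 0.36 (adjusted p = 0.0225). The border was below every array in the first and above every array in the second, and the difference was 3.53 ± 0.61 (adjusted p = 6.53e-04; edgeR). The Tumor 2 change lost its call without the first or second Tumor 2 array (adjusted p = 0.0632 and 0.0529) and with at least 500 genes per barcode (0.107). Without the third Tumor 2 array it was 2.41 and the difference between the tumors 4.39. C1q macrophage-like cells were 5.36% of barcodes in the Tumor 1 arrays and 0.161% at its border, and 11.0% and 33.8% in Tumor 2. The part of these shares was not tested. In neutrophil-like cells the Cxcl14 changes were -1.74 ± 0.73 in Tumor 1 and 1.56 ± 0.99 in Tumor 2, and neither passed. Within C1q macrophage-like cells the Tumor 2 border had 130 CPM against 39.9, 42.1 and 122 in the arrays, a change of 0.63 ± 0.55 that did not pass.

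Cxcl13 (chr5:95956939-95961068), the follicular B cell attractant, had 116 UMIs in only 16 barcodes, and 5 barcodes held 83.6% of them. C1q macrophage-like cells held 86 UMIs in 13 barcodes, all of Tumor 2, at 77.7 CPM at its border and 43.0 CPM in its arrays. A single fibroblast-like barcode of the second Tumor 2 array held 28 UMIs and set that class's 177 CPM. The closest class patterns, Ccl8 and Serpinf1 (r = 0.95 for each), rest on the same few barcodes of the gene. Over all cells, 52 UMIs in the Tumor 2 arrays stood against 2 in those of Tumor 1, a ratio of 36.5 with a counting interval of 9.60 to 309. The ratio was 19.3 (4.80 to 169) without the second Tumor 2 array and 18.4 (4.84 to 156) without the second Tumor 1 array, and 47.9 to 54.9 without each of the others. The Tumor 2 arrays ranged from 1.36 to 74.8 CPM.

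Cxcr5 (chr9:44511787-44526444), its receptor, was highest in B-like cells at 204 CPM (157 to 261), which held 63 of 124 UMIs. A UMI was found in 29.7% of the 128 barcodes, and in 17.5% of 114 after thinning to 1000 UMIs. Neutrophil-like cells, taken as background, had a UMI in 0.767% of barcodes at a median depth of 2047, against 2079.5 in the B-like class. Mature dendritic-like cells followed at 86.6 CPM (41.5 to 159), on 10 UMIs in 3 barcodes, of which 1 had 7, and at 38.1 CPM without the third Tumor 2 array. Of the 38 B-like barcodes with Cxcr5, 16 also had Cxcr4. B-like levels were 204 CPM at the Tumor 2 border and 62.2, 0 and 174 CPM in its arrays, and 420 and 180 CPM in the second and the third array of Tumor 1. No barcode had both Cxcl13 and Cxcr5. The closest patterns were those of Snn and Zfp259 (r = 0.88 and 0.86).

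Between the tumors, all 8 members tested were called in the Whole Tumor arrays, where 25.2% of 11232 genes were called. Cxcl13, with 2 UMIs in the Tumor 1 arrays, passed the filter on low counts through Tumor 2 alone, so its call adds nothing to its UMI counts. Cxcl10 (2.44 ± 0.32), Cxcl16 (1.91), Cxcl12 (1.69 ± 0.49), Cxcr5 (1.61 ± 0.45), Cxcr6 (1.21 ± 0.33), Cxcr4 (0.83 ± 0.18) and Cxcl13 were higher in Tumor 2 and Cxcl14 (-1.02 ± 0.29) was lower, as log2 changes with SE. The adjusted p-values ran from 1.42e-06 for Cxcl16 to 0.0157 for Cxcl12 (edgeR). Cxcl12 lost its call without the second Tumor 1 array, the second Tumor 2 array or the third Tumor 2 array (adjusted p = 0.0627, 0.0524 and 0.0872), Cxcr5 without the third Tumor 2 array (0.136) and Cxcl14 without the first Tumor 2 array (-0.73, adjusted p = 0.0922). Without the third Tumor 2 array the change in Cxcl14 was -1.90, and without the third Tumor 1 array that in Cxcl12 was 2.49. With at least 500 genes per barcode, Cxcl12, Cxcl14 and Cxcr6 lost theirs (0.0725, 0.0572 and 0.0527). B-like cells were 1.03% of barcodes in the Tumor 1 arrays and 5.26% in those of Tumor 2, T-like cells 0.343% and 2.44%, and Krt+ tumor-like cells 11.0% and 0.534%. The part of these shares in the differences was not tested.

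**Figure D4:**
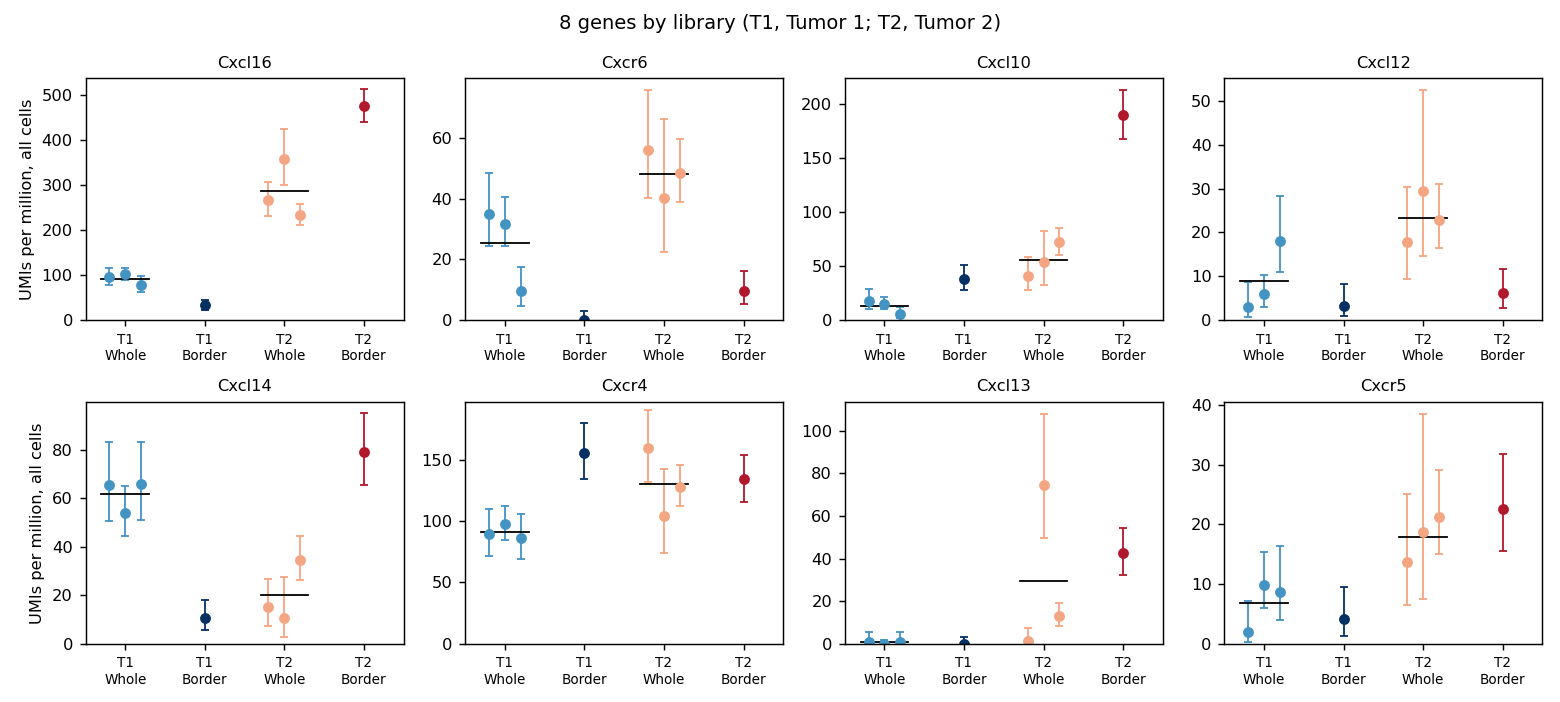
Levels of the 8 members tested over all cells of each library, in CPM; points are libraries with exact Poisson 95% intervals and black lines the mean of 3 arrays. Cxcl10 at both borders, 38.2 and 189, lies above the arrays of the same tumor, and Cxcr6, 0 and 9.58, lies below them.

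With library totals in place of TMM scaling, the median log2 change of all genes moved from -0.08 to -0.39 between the Whole Tumor arrays, from -0.08 to -0.61 at the Tumor 1 border and from 0.02 to 0.19 at the Tumor 2 border. In the same order, 1606 higher and 1230 lower genes became 1083 and 2703, 1119 and 940 became 544 and 2517, and 115 and 243 became 240 and 189. For the difference between the tumors, 778 and 886 became 2370 and 454. In neutrophil-like cells 1387 and 1180 became 689 and 3373 between the tumors, 372 and 65 became 135 and 691 at the Tumor 1 border, and 125 and 268 became 454 and 141 at that of Tumor 2. All 8 members stayed called between the Whole Tumor arrays. In neutrophil-like cells Cxcr4 was the only 1 of 4 members called between the tumors, where 39.0% of 6575 genes were called. It was 0.77 ± 0.25 higher in Whole Tumor 2 (adjusted p = 0.0172, edgeR) but -0.046 with library totals, and its CPM were 127, 171 and 127 in Tumor 1 and 151, 104 and 150 in Tumor 2. This call was also lost without the third array of Tumor 1 or of Tumor 2 (adjusted p = 0.0706 and 0.142), with DESeq2 (0.0565), with no filter on low counts (0.165) and without barcodes of mixed markers (0.101).

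At the borders, 4 of 8 members were called in Tumor 1 and 3 of 8 in Tumor 2, where 18.3% and 3.19% of 11232 genes were called, and 3 of 8 differed between the tumors, where 14.8% did. The 4 called in Tumor 1 include Cxcr6, which had 0 UMIs at that border. In the neutrophil-like class 1 of 4 was called at each border, where 6.65% and 5.98% of genes were called. The members and the Whole Tumor arrays are shared between these comparisons.

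The genes of the interferon gamma pathway were followed beside Cxcl9 and Cxcl10, with log2 changes by edgeR. All 18 listed were tested over all cells, and in the Whole Tumor 2 arrays 7 were higher and 0 lower, where 25.2% of all genes were called, with a list median of 0.79 against -0.08 for all genes. Interferon gamma itself (Ifng) had 58 UMIs there against 0 in the Tumor 1 arrays. Ifng and Xcl1 were among the 10 genes that led the NK-like class. NK-like cells were 2.06% of barcodes in the Tumor 2 arrays and 0.206% in those of Tumor 1, and their part in these counts was not tested. The transcription factor Irf1 (1.80), the class II regulator Ciita (1.31) and the GTPase Gbp4 (1.21) were also higher. With library totals 4 were higher, without Gbp4. At the Tumor 1 border Cd274, which encodes the checkpoint ligand PD-L1 (2.57), Irf1 (1.37) and the kinase Jak2 (1.07) were higher and 0 lower, at a list median of -0.40, where 18.3% of all genes were called. With library totals that became 2 higher and 6 lower. At the Tumor 2 border Irf1 (-1.08) was lower and 0 were higher, at a median of -0.60, where 3.19% of all genes were called. In neutrophil-like cells 9 were tested, where 6.65% and 5.98% of all genes were called at the borders. Cd274 alone was called at the Tumor 1 border (1.77), where with library totals 1 was higher and 3 were lower, and Irf1 alone at that of Tumor 2 (-1.45), where with library totals 0 were called.

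Of the other chemokines and partners, 20 were tested over all cells. In the Whole Tumor 2 arrays 10 were higher, among them the lymph node homing receptor Ccr7 (2.77), Cx3cr1 (2.70) and Rgs2 (1.95), a brake on G protein signalling, and Ackr3 (-2.95) was lower. Xcl1, an attractant of cross-presenting dendritic cells, had 27 UMIs against 2 there. The median was 0.88 against -0.08 for all genes, of which 25.2% were called, and with library totals 8 were higher and 4 lower. At the Tumor 1 border, where 18.3% of all genes were called, 4 were higher and 5 lower, or 2 and 6 with library totals. The neutrophil attractants Cxcl2 (3.55), Cxcl3 (2.84) and Cxcl1 (0.89) and the protease Adam17 (0.88) were higher, of which Cxcl1 and Adam17 lost their calls with library totals. Of the 5 lower, Pf4 (-3.48) and Ccr7 (-2.20) are examples, while Ackr3 had 1 UMI at the border against 175 in the arrays and Cxcl15 1 against 140. At the Tumor 2 border Cx3cr1 (2.65) was higher and Cxcr2 (-2.36) lower, where 3.19% of all genes were called. Neutrophil-like cells of the Tumor 1 border were higher in Cxcl2 (2.70), Cxcl3 (2.23) and Cxcl1 (2.22) of 12 tested, where 6.65% of all genes were called, and 0 were lower, or 3 with library totals.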

How the data were processed

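Seq-Well libraries were sequenced and, per the labels and the study's methods, the authors demultiplexed reads with bcl2fastq 2.17.1.14, aligned them to mm10 with STAR 2.5.2b and deposited raw UMI counts per gene and barcode; these counts were used as deposited. The annotation and the use of strand are not given in the sources used here. Barcodes with at least 200 genes were gated on marker lists, at least 2 markers each. The gate found 0 mesothelial-like barcodes and 13 plasma-like, 12 plasmacytoid dendritic-like and 3 basophil or mast-like ones, which were left out of the order of levels (at least 20 barcodes). The values of 1 further class, its comparison and 1 allele of the mice are not reported here. Scrublet in scanpy 1.11.5 called 57 doublets (1.46%), which were kept in the main analysis.

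UMIs were summed per library, or per library and class with at least 5 barcodes, and tested with edgeR 4.0.16 (quasi-likelihood test, TMM, filterByExpr, library as a block between classes), with Benjamini-Hochberg adjustment over all genes tested at 0.05. Class intervals are exact (95%). The fits were tested on simulated data. Mature against conventional dendritic-like cells could not be fitted, and T-like against NK-like cells held no member past the filter. Named genes were the 10 members, up to 4 called genes a direction from 2 pathway lists, and the 2 most alike genes by r of log2(CPM + 10) over classes, among genes with at least 50 UMIs. The members, lists and tests were chosen with earlier results of these data known. Alternatives included DESeq2 1.42.0; those with library totals, without primer-like barcodes and without the Border libraries were added after seeing the data. Promoter sequences and gene positions came from RefSeq GRCm38.p6.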

Additional observations from a re-analysis of the deposited data

Results flagged for a closer look

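The change from Whole Tumor to Border over all cells differed between the tumors for 3 of the 8 members tested, by the interaction term of the edgeR fit, in which 14.8% of all genes tested passed. Cxcl14 fell at the Tumor 1 border and rose at that of Tumor 2, a difference of 3.53 on the log2 scale. For Cxcl16 the difference was 1.56, with neither border change called alone. For Cxcr4 it was -1.45, with a called rise at the Tumor 1 border alone. Each border is 1 library. C1q macrophage-like cells were 0.161% of barcodes at the Tumor 1 border and 33.8% at that of Tumor 2, and neutrophil-like cells 70.3% and 22.1%; their part in these differences was not tested.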

How the results depend on the processing

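The fit with the replicate number as a block called 8 members between the Whole Tumor arrays over all cells, as without it, and 2 in neutrophil-like cells in place of 1. Same-numbered arrays of the tumors deviated together with correlations of 0.175, 0.230 and -0.00595, so the numbers were not taken to pair them. Counts of members called were within 1.5 times or equal in 189 of the recomputed values and moved in 27. Between the Whole Tumor arrays 5 were called with at least 500 genes, and at the Tumor 2 border 0. Over both tumors 0 were called by DESeq2 and with library totals, and 0 to 1 without each array in turn. In neutrophil-like cells between the tumors 0 were called by DESeq2 and without mixed barcodes, and 2 with at least 3 markers, with classes from clusters and without primer-like barcodes; leaving out arrays gave 1 to 2. In neutrophil-like cells at the borders, with 2 called in all, 1 was called by DESeq2, which gave no adjusted p for Cxcl10 at the Tumor 1 border, and 1 without mixed barcodes, and 1 to 2 without each array. T-like against B-like gave 0 by DESeq2, with at least 3 markers and with no library block, 2 with no filter on low counts, and 0 to 1 without each array. Endothelial-like against fibroblast-like gave 1 with no filter and 0 to 1 without each array. C1q macrophage-like against neutrophil-like gave 3 without mixed barcodes, 1 with no library block, 2 without the Border libraries and 3 to 5 without each array, and DESeq2 did not call Cxcl13 there (adjusted p = 0.540). The direction turned for 5 values: Cxcl10 in C1q macrophage-like cells at the Tumor 2 border without mixed barcodes (-0.22), Cxcr4 in neutrophil-like cells between the tumors (-0.046) and the difference between the tumors for Cxcl10 (0.17) with library totals, and Cxcl16 in Krt+ against Sftp+ tumor-like cells by DESeq2 (0.29) and with no filter (0.77). The cause was not tested. Of the other log2 changes, 521 kept their direction and call, 39 lost the call and 10 gained it. Of the settings that kept at least 20 barcodes of the highest class, it stayed the highest in 14 of 14 for Cxcl10, Cxcl14 and Cxcr5, 13 of 13 for Cxcr6, 13 of 14 for Cxcl12, 12 of 13 for Cxcr3 and Cxcr4, 12 of 14 for Cxcl13, 11 of 12 for Cxcl16 and 7 of 7 for Cxcl9. With classes from clusters, no group 2 innate lymphoid-like or T-like class formed, and Cxcr6 was highest in NK-like cells at 116 CPM. Few lymphocytes limit the results on their classes, 1 border library a tumor those at the borders, and 1 mouse a tumor with technical arrays those between the tumors.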
